A study of Mus musculus with 8 samples.

Results

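Intervals around the genes of 6 glycolytic enzymes, Aldoa, Gapdh, Pgk1, Eno1, Pkm and Ldha, held 32 of 105252 listed peaks of N4-acetylcytidine (ac4C). The peaks of this acetylated cytosine in RNA were listed in mouse bone marrow-derived monocytes driven towards osteoclasts. The cells were wild-type (WT) or carried a conditional knockout (CKO) of Nat10, the enzyme that writes ac4C in RNA, and both genotypes had received RANKL, the cytokine that starts osteoclast formation, for 3 days. The sources used here do not name the Cre driver of the knockout or the strain, age and sex of the mice. Immunoprecipitated (IP) and input RNA gave 8 samples, and each IP library with its own input gave 1 list of peaks, so that there were 2 lists per genotype, called WT 1, WT 2, CKO 1 and CKO 2. A peak was taken as a member if it shared 1 or more bases, on the strand of the gene, with 1 of 6 intervals of the mm39 genome set around these genes in whole kb.

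Glycolysis splits glucose into pyruvate and yields ATP without oxygen. Osteoclasts are motile cells with a high energy demand and are known to use both glycolysis and mitochondrial respiration. Of the 6 enzymes, aldolase A (Aldoa) cleaves the doubly phosphorylated fructose, Gapdh oxidises the resulting triose phosphate, phosphoglycerate kinase (Pgk1) and pyruvate kinase (Pkm) make ATP, enolase (Eno1) forms phosphoenolpyruvate between these steps, and lactate dehydrogenase A (Ldha) turns the pyruvate formed by glycolysis into lactate. Their mRNAs are abundant in most cell types, and the Gapdh mRNA is often used as a reference in expression assays.

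The lists give positions and a score, but no read counts, so the depth behind a peak and the level of each mRNA are unknown. A gene without a peak therefore had no listed call, which does not show that ac4C was absent. The intervals were searched at chr7:126394001-126400000 for Aldoa (minus strand), chr6:125138001-125144000 for Gapdh (minus), chrX:105230001-105248000 for Pgk1 (plus), chr4:150321001-150334000 for Eno1 (plus), chr9:59563001-59587000 for Pkm (plus) and chr7:46490001-46506000 for Ldha (plus). Exon, intron and UTR positions within them, the sequences under the peaks and the markers of osteoclasts and other cell types were not analysed here. Copies of these genes elsewhere in the genome, such as Eno1b for Eno1 and processed pseudogenes of Gapdh, could take part of the reads, and the sources used here do not say how such reads were treated.

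All 6 genes had a peak in WT 1 and in CKO 2. In WT 2 a peak was found in 5 genes, with Ldha missing, and in CKO 1 in 3 genes, with Ldha, Pgk1 and Aldoa missing. Gapdh, Eno1 and Pkm were thus the 3 genes with a peak in every list. The gene with the most peaks over the 4 lists was Eno1, with 10, followed by Pkm with 7, Gapdh with 5, Ldha with 4, and Pgk1 and Aldoa with 3 each. Per kb of the searched interval, Gapdh (0.833) and Eno1 (0.769) were the densest and Pgk1 (0.167) the sparsest.

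**Figure D1:**
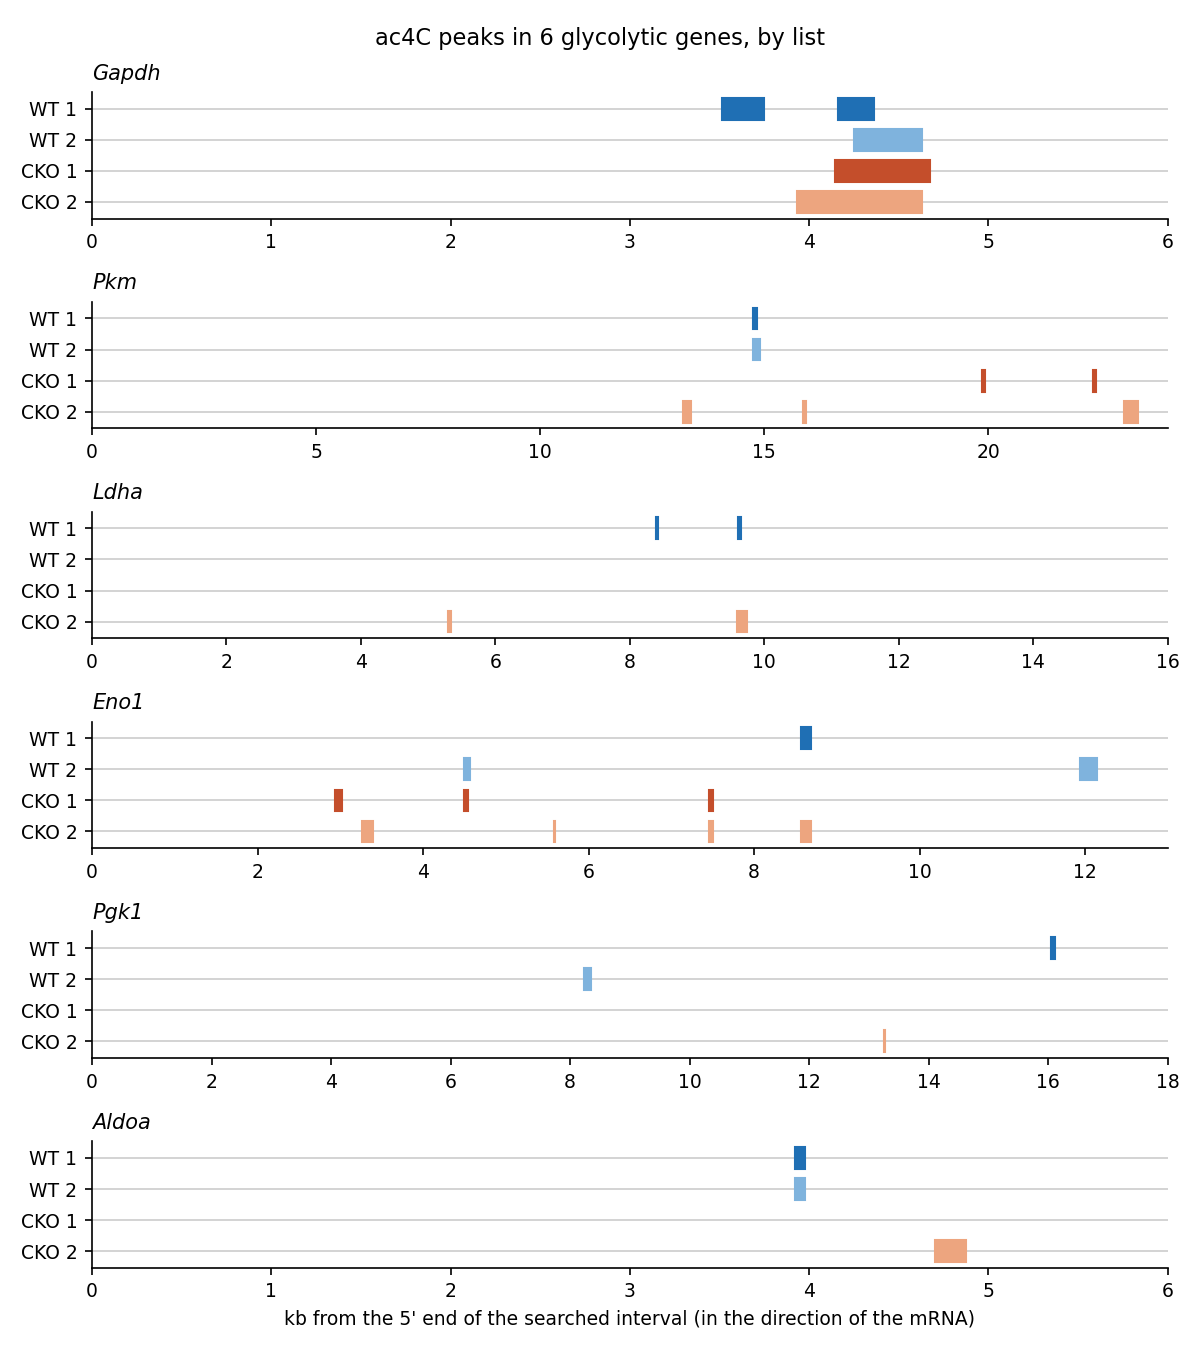
Positions of the 32 peaks, 1 panel per gene and 1 line per list, in kb from the 5′ end of the searched interval in the direction of the mRNA (each interval is longer than the annotated length of its gene, and each panel has its own scale). The Gapdh peaks of all 4 lists overlap, whereas the 7 Pkm peaks share a position only between the WT lists and the 3 Pgk1 peaks lie apart.

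Added over the 6 genes, the peaks numbered 8 in WT 1, 6 in WT 2, 6 in CKO 1 and 12 in CKO 2. CKO 2 stood above the other lists, and the genotypes overlapped. The WT mean was 7.0 ± 1.41 and the CKO mean 9.0 ± 4.24 (SD, n = 2 lists each), a difference of 2.0 that was smaller than the CKO spread. By exact permutation, two-sided, p was 1.0 (1.0 also after adjustment over the 8 comparisons made here, the 2 totals and the peak number of each gene). Such a test on 2 lists against 2 cannot go below 0.33, and nothing says whether the lists of a genotype came from separate mice, so p-values measure only the spread between lists, which may be technical. Without CKO 2 the difference turned to -1.0 peaks.

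CKO 2 also stood apart in covered length. Peaks covered 831 bases in WT 1, 969 in WT 2, 835 in CKO 1 and 1920 in CKO 2. The means were 900.0 ± 97.58 bases in WT and 1377.5 ± 767.21 in CKO (SD, n = 2 lists each), with an exact two-sided permutation p of 0.667 (adjusted p = 1.0). Without CKO 2 the difference was -65.0 bases, against 477.5 with all lists. CKO 2 is also the shortest list of the series, with 24249 peaks, and per 10000 peaks of its list it held 4.95 peaks of these genes, against 2.85 in WT 1, 2.41 in WT 2 and 2.14 in CKO 1.

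**Figure D2:**
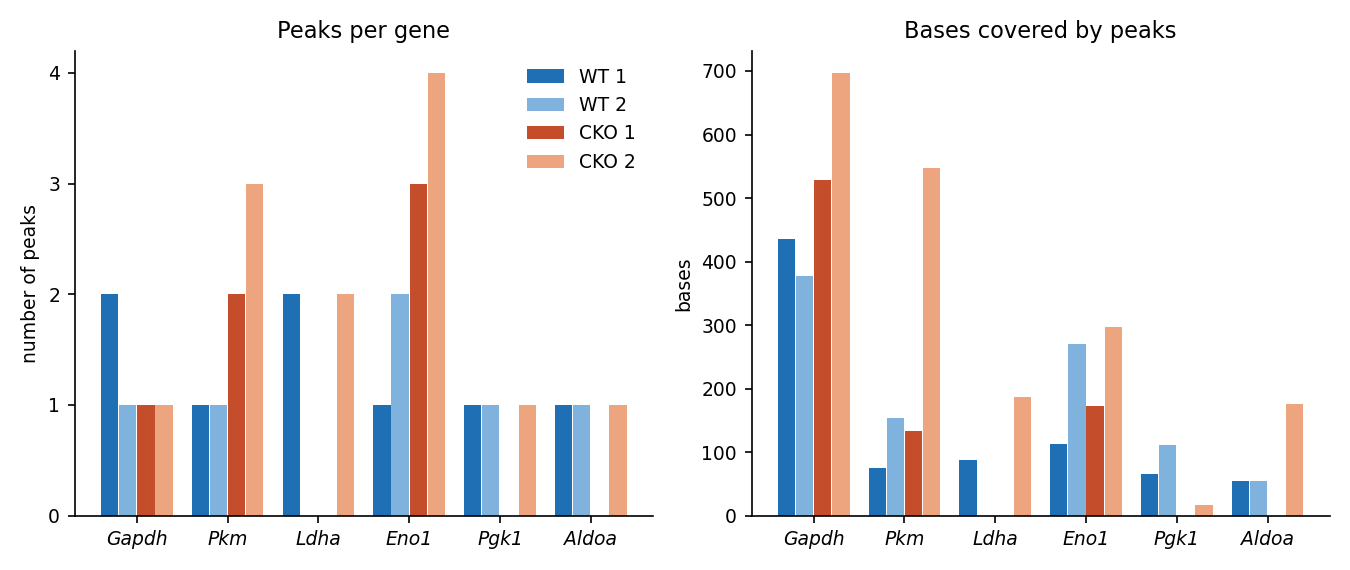
Left, number of peaks per gene and list, and right, bases covered by these peaks (bars start at 0, 1 bar per list, no error bars because each bar is a single list). Peak numbers in Eno1 and Pkm are higher in both CKO lists than in both WT lists, and covered bases are so in Gapdh, while covered bases in Pgk1 are lower in both CKO lists; CKO 1 has no bar for Ldha, Pgk1 and Aldoa.

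Aldoa, the enzyme that acts earliest among the 6, had a single peak in both WT lists with the same edges, chr7:126396026-126396080 (55 bases, minus strand). It stood at percentile 97.46 of the scores in WT 1 and 98.71 in WT 2, where the percentile is the rank of a peak's score within its own list and the highest score has 100; the scores are the authors' own and were used for ranks only. CKO 1 had no Aldoa peak. CKO 2 had a peak at chr7:126395122-126395296 (175 bases, percentile 98.99), 729 bases away from the WT position. The Aldoa position of the WT lists was thus held by WT lists alone, and the only CKO call was elsewhere in the gene.

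Gapdh was the only one of the 6 genes with a region called in all 4 lists. The Gapdh peaks lay at chr6:125139641-125139841 in WT 1, chr6:125139375-125139752 in WT 2, chr6:125139329-125139856 in CKO 1 and chr6:125139374-125140070 in CKO 2, all on the minus strand. They share 112 bases, chr6:125139641-125139752, and their union spans 742 bases. Of the 727 regions of the series with a peak in all 4 lists, which are 0.964% of 75389 merged regions, 66, Gapdh included, were this long or longer, the median being 221 bases. The peak ranked 86th of 28065 peaks in WT 1, 615th of 24851 in WT 2, 25th of 28087 in CKO 1 and 13th of 24249 in CKO 2. By mean percentile (99.27) only 15 of the 727 regions, this one included, stood as high.

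The Gapdh peak covered more bases in both knockout lists than in both WT lists. In this region it spanned 201 bases in WT 1, 378 in WT 2, 528 in CKO 1 and 697 in CKO 2, and the genotypes did not overlap. The mean was 289.5 ± 125.2 bases in WT and 612.5 ± 119.5 in CKO (SD, n = 2 lists each), a ratio of 2.12. This measure was chosen after the peaks had been seen and was not tested. Among the 727 regions held by all lists, both CKO lists covered more bases than both WT lists in 10.2%, and the opposite held in 16.0%. The median ratio over these regions was 0.99, and 43 of them, Gapdh included, had a ratio this high or higher. WT 1 had a further Gapdh peak at chr6:125140253-125140486 (234 bases, percentile 99.58), 182 bases from the nearest CKO peak, and with it the covered length in the gene was 435 bases in WT 1, still below both CKO lists. Over the whole gene the means were thus closer, at 406.5 ± 40.3 bases in WT and 612.5 ± 119.5 in CKO (SD, n = 2 lists each). The ratio of 2.12 leaves this further peak out.

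Pgk1, the first of the 2 ATP-forming enzymes here, had a single peak in 3 lists, at 3 positions that did not touch. The peak lay at chrX:105246045-105246109 in WT 1 (65 bases, percentile 99.12), at chrX:105238238-105238348 in WT 2 (111 bases, percentile 98.64) and at chrX:105243253-105243269 in CKO 2 (17 bases, percentile 95.63). CKO 1 had none. The covered length, 65 bases in WT 1, 111 in WT 2, 0 in CKO 1 and 17 in CKO 2, was higher in both WT lists than in both CKO lists, with a WT mean of 88.0 ± 32.5 and a CKO mean of 8.5 ± 12.0 bases (SD, n = 2 lists each). Pgk1 and Gapdh were the 2 genes whose covered length did not overlap between the genotypes, in opposite directions. Over the 12944 loci of 3 or more peaks in the series, made by chaining same-strand peaks over gaps of up to 5000 bases, both WT lists covered more bases than both CKO lists in 16.5% and both CKO lists more in 15.1%. The Pgk1 locus held the same 3 peaks as its interval, the fewest that a locus could have here. The shares pool it with loci of more peaks and were not split by peak number. The Gapdh locus held 12 peaks, of which 5 lay in the interval, so these shares are no like background for Gapdh. Covered length was compared gene by gene after the peaks had been seen, without a test. Each Pgk1 peak stood high in its list, yet the nearest peak of the other genotype was 2775 bases away for WT 1 and 4904 bases away for WT 2.

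Eno1 had 1 peak in WT 1, 2 in WT 2, 3 in CKO 1 and 4 in CKO 2. Both CKO lists thus exceeded both WT lists, with a WT mean of 1.5 ± 0.71 and a CKO mean of 3.5 ± 0.71 (SD, n = 2 lists each; exact two-sided permutation p = 0.33, adjusted p = 1.0). Of the 5793 chained loci of 6 or more peaks in the series, 10.8% had more peaks in both CKO lists than in both WT lists. The opposite held in 10.0%. The separation in Eno1 rested on low-ranked calls. In the top 50% of each list by score, CKO 2 had 2 Eno1 peaks and the genotypes touched. The covered bases overlapped with all peaks in, at 113 in WT 1, 271 in WT 2, 173 in CKO 1 and 297 in CKO 2.

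The 10 Eno1 peaks fell into 7 regions, of which 3 were shared by 2 lists, 2 of them by a WT and a CKO list. At chr4:150329572-150329684 WT 1 and CKO 2 had a peak of 113 bases with the same start and the same end, at percentiles 99.71 and 98.17. At chr4:150325502-150325568 WT 2 and CKO 1 had peaks with the same start, at percentiles 70.80 and 91.81. The only region that both CKO lists held alone in these genes lay at chr4:150328462-150328501, with peaks of 40 and 37 bases that began at the same base. Its percentile was 98.06 in CKO 1 and 50.01 in CKO 2, and the nearest WT peak was 1070 bases away. The other 4 regions were in 1 list each: WT 2 at chr4:150332943-150333146, CKO 1 at chr4:150323930-150324021, and CKO 2 at chr4:150324263-150324393 and chr4:150326579-150326594. The last 2 stood at percentiles 15.39 and 20.86 and were the only peaks of the 32 below percentile 50.

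Pkm, which makes pyruvate and ATP at the end of glycolysis, had 1 peak in each WT list, 2 in CKO 1 and 3 in CKO 2. The WT mean was 1.0 ± 0.0 and the CKO mean 2.5 ± 0.71 (SD, n = 2 lists each; exact two-sided permutation p = 0.33, adjusted p = 1.0), and the same numbers were found in the top 50% of each list. Of the same 5793 chained loci of 6 or more peaks, both CKO lists exceeded both WT lists in 10.8%, while both WT lists exceeded both CKO lists in 10.0%. For Pkm and Eno1 these loci held the same peaks as the intervals. The Pkm peaks covered 75 bases in WT 1, 154 in WT 2, 134 in CKO 1 and 547 in CKO 2, so that by length the genotypes overlapped.

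No Pkm position was shared between the genotypes. Both WT lists had their peak at chr9:59577750-59577903, with the same start, at percentiles 95.30 and 96.84. The CKO 1 peaks lay at chr9:59582851-59582917 (percentile 95.48) and chr9:59585327-59585393 (86.38). Those of CKO 2 lay at chr9:59576196-59576371 (62.15), chr9:59578858-59578916 (99.42) and chr9:59586011-59586322 (73.66). The nearest CKO peak was 954 bases from the WT position. The CKO lists did not share a Pkm position with each other either, so the higher CKO number was made up of 5 separate calls.

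Ldha, which regenerates NAD for glycolysis by making lactate, had 2 peaks in WT 1, 2 in CKO 2 and none in WT 2 and CKO 1. Each genotype therefore had a list with and a list without Ldha peaks. At chr7:46499602-46499743 the peaks of WT 1 (58 bases, percentile 93.14) and CKO 2 (142 bases, percentile 95.90) began at the same base. The other 2 peaks were in single lists, at chr7:46498397-46498426 in WT 1 (percentile 80.99) and at chr7:46495297-46495341 in CKO 2 (percentile 71.50).

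The glycolytic peaks stood high in their lists. Of the 32 peaks, 21 (65.6%) were at or above percentile 90, where 10.0% of all peaks lie. These were 7 of 8 in WT 1, 4 of 6 in WT 2, 4 of 6 in CKO 1 and 6 of 12 in CKO 2. At or above percentile 99 were 7 peaks. All peaks of Gapdh, Pgk1 and Aldoa were at percentile 95.63 or higher, while those of Eno1 ran from 15.39 to 99.71, those of Pkm from 62.15 to 99.42 and those of Ldha from 71.50 to 95.90. How far this follows the amount of these mRNAs was not tested, since the lists hold no expression values.

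**Figure D3:**
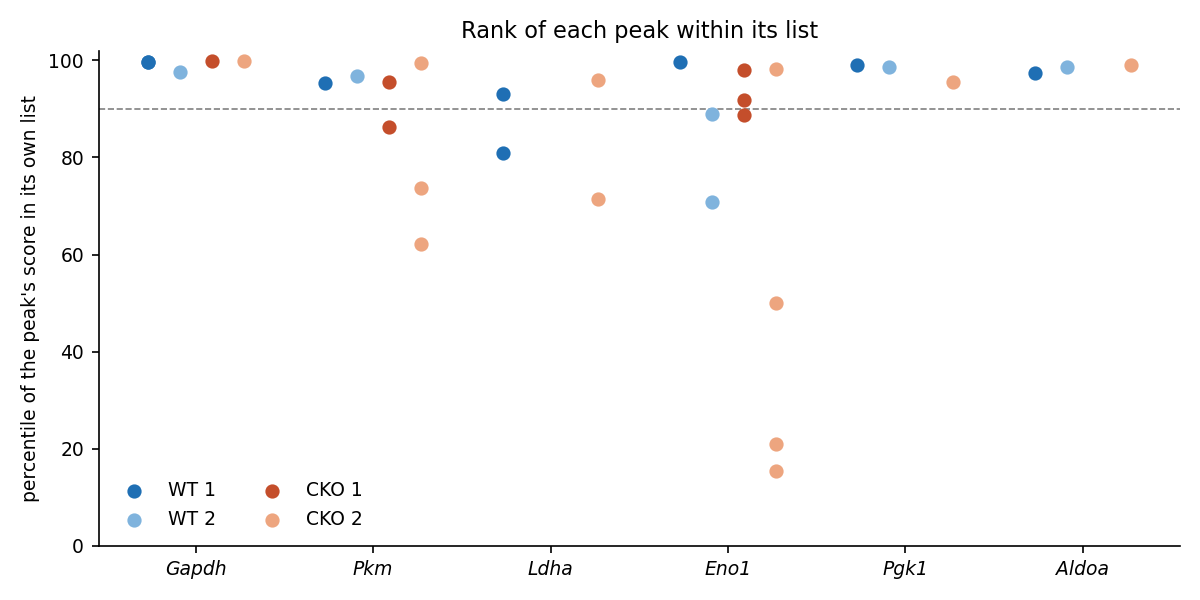
Percentile of each of the 32 peaks among the scores of its own list, by gene and list; the dashed line marks percentile 90, and the 2 Gapdh points of WT 1 coincide. Peaks of Gapdh, Pgk1 and Aldoa sit above the line in every list that has them, and the 2 lowest points are Eno1 peaks of CKO 2.

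Peak widths differed among the lists. They ran from 16 bases (Eno1 in CKO 2) to 697 bases (Gapdh in CKO 2), with a median of 83.5 bases, against 114 bases over all peaks of the series. By list, the median was 70 bases in WT 1 and 67 in CKO 1, below the 113 and 115 bases of all peaks of these lists, and 132.5 in WT 2 and 122 in CKO 2, above their 110 and 120 bases. Under 100 bases were 17 of the 32 peaks (53.1%), against 44.9% of all peaks. By gene, the median width was 378 bases in Gapdh, 79.5 in Eno1, 75 in Pkm, 65 in Pgk1, 55 in Aldoa and 51.5 in Ldha, and the widest peak outside Gapdh, of 312 bases, was in Pkm in CKO 2. Seen from the 5′ end, the peaks lay between 22.9% and 96.5% of the length of their interval, and 25 of 32 lay past its middle. All 7 peaks before the middle were in Eno1 (5), Ldha (1) and Pgk1 (1). These are distances along the genome with introns included, not along the mRNA.

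In 12 cases peaks of different lists overlapped within these genes, and 6 of these 12 pairs began or ended at exactly the same base, 2 of them with both edges the same. Over the whole series this was so for 70.3% of 36201 overlapping pairs, and 10.2% had both edges the same. The 6 Gapdh pairs shared no edge, and all 6 pairs in the other genes shared at least the start position on the genome. The sources used here do not say how peak edges were set when the lists were limited to mRNA.

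Merged over the lists, the 32 peaks formed 23 regions, of which 16 (69.6%) were in 1 list only, close to the 69.1% of all merged regions. Of these 16, CKO 2 had 8, WT 1 and CKO 1 had 3 each and WT 2 had 2. Gapdh was the 1 region in all lists, and no region was in 3 lists. Both WT lists alone held 2 regions (8.70%), the Aldoa and the Pkm position above, against 4.26% of all regions, and both CKO lists alone held 1 (4.35%), in Eno1, against 3.64%. A WT and a CKO list together held 3 regions (13.0%), 2 in Eno1 and 1 in Ldha, against 15.8%. With 23 regions, each region changes a share by 4.35 percentage points. None of the 2 WT-only regions and the 1 CKO-only region was left when peaks under 100 bases were taken out.

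**Figure D4:**
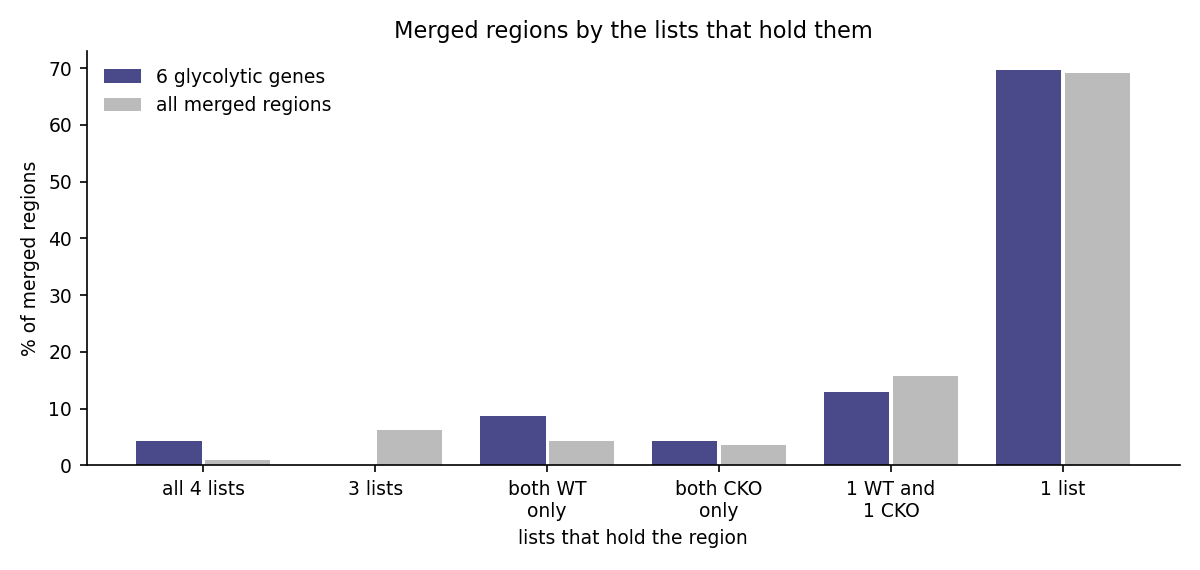
Share of merged regions, in percent, by the lists that hold them, for the 23 regions of the 6 glycolytic genes (dark bars) and all 75389 merged regions of the series (grey bars). Regions of a single list make up 69.6% and 69.1%.

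The overlap of lists of the same genotype lay within the range of lists of different genotypes. In the 6 genes the Jaccard index, shared over covered bases, was 0.155 for the WT pair and 0.233 for the CKO pair. CKO 1 reached 0.137 against WT 1 and 0.303 against WT 2, and CKO 2 reached 0.156 against WT 1 and 0.151 against WT 2. All were above the values over the whole lists, 0.0899 to 0.0992. Without Gapdh the index was 0.152 for the WT pair, 0.0248 for the CKO pair and 0.0 to 0.118 between genotypes, so that the WT pair then stood above the rest. Only the WT pair and WT 1 with CKO 2 (0.118) then stayed above the whole-list values, and all other pairs fell below them. The pairs compared share lists and a small number of peaks, so the indices are descriptions without a test.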

How the data were processed

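Acetylated RNA immunoprecipitation sequencing was done on RNA fragments of 100 to 200 nt, per the labels' protocols. The tools named are MACS2 2.2.7.1, STAR 2.7.8a and fastp 0.20.1 and the build named is mm39, per the submitters' processing notes. The peak names show calling per library. Each peak carries a score deposited by the authors; the sources used here do not say which MACS2 output it is or how peaks were limited to mRNA. Lists went to genotypes through the library code in peak names and sample titles.

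Here, member peaks were counted and measured per list, and peaks of the 4 lists were merged where they shared 1 or more bases on the same strand. BED starts were printed counting from 1. Genotypes were compared over lists by an exact permutation test, two-sided, with Benjamini-Hochberg adjustment over 8 comparisons. The merge was tested on simulated lists of well-separated regions with at most 1 peak per list in each, which is simpler than the real lists. Alternatives were the top 50% by score, equal peak numbers, peaks of 100 bases or more, intervals widened by 2000 bases, other merging rules, each list left out and a replicate block. All 6 genes are named, with all regions of all 4 lists and up to 5 regions of each genotype alone. The genes and measures were chosen with earlier results of these data known, and the loci, edges and covered bases per gene or region after the peaks had been seen. Gene coordinates of GRCm38.p6 were not used, since the build differs. Gene lengths from the RefSeq annotation were set beside the interval lengths, which does not show that a gene lies wholly inside its interval. Python 3.11.15, numpy 2.4.6 and pandas 2.3.3 were used.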

Additional observations from a re-analysis of the deposited data

How the results depend on the processing

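The CKO minus WT difference in peak number over the 6 genes, 2.0 with all peaks, was 1.0 in the top 50% of each list, 2.0 with equal numbers of peaks, 0.5 with peaks of 100 bases or more and 1.5 with widened intervals, and 0.91 per 10000 peaks of the list. Leaving out 1 list gave -1.0 (without CKO 2) to 5.0 (without CKO 1). The difference in covered bases, 477.5, ran from 404.0 to 477.5 in the first 4 of these settings and from -65.0 (without CKO 2) to 1020.0 (without CKO 1) with 1 list left out. The labels link same-numbered lists by a replicate number only. The within-genotype differences in presence over 75389 regions had a correlation of -0.0083. This value cannot show whether same-numbered lists were prepared together. List lengths were close by number, at 28065 peaks in WT 1 and 28087 in CKO 1, and at 24851 in WT 2 and 24249 in CKO 2. A shared batch was not tested. A replicate block cannot change either difference, because the mean of the paired differences always equals the difference of the means. By pair, the differences were -2.0 and 6.0 peaks (mean 2.0), and 4.0 and 951.0 bases (mean 477.5). The Gapdh region was held by all lists used under the other merging rules, the score and width limits, equal numbers and with 1 list left out; region counts were not made for widened intervals or the block. The regions of both WT lists alone, 2, and of both CKO lists alone, 1, each fell to 0 for peaks of 100 bases or more and kept their number under the other settings with 4 lists; with 1 list left out they ran from 2 to 5 and from 1 to 9, because 1 list alone then represents its genotype. Unknown read depth and 2 lists per genotype limit all of these values.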

Other observations

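On the opposite strand of the Aldoa interval, which the member rule leaves out, all 4 lists had a peak with the same edges, chr7:126396840-126396864 on the plus strand (25 bases). It stood at percentile 99.91 in WT 1, 99.84 in WT 2, 99.93 in CKO 1 and 99.89 in CKO 2, above every Aldoa peak on the strand of the gene. The other 5 intervals had 0 peaks on the opposite strand. The transcript to which the authors assigned this peak was not identified here, nor was the way in which strands were assigned. The position was singled out after its values were seen.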
